A study of Homo sapiens with 18 samples.

Results

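The 10 genes described here encode parts of the super elongation complex and of its kinase module, and an inhibitor of that kinase. These genes are ELL2, ELL, EAF2, EAF1, AFF1, AFF4, CDK9, CCNT1, CCNT2 and the inhibitor gene HEXIM1. They were taken by name from the 27574 genes of the tables, and all 10 were found and had an adjusted p in all 5 deposited comparisons. The samples were cultures of LNCaP, a line from a human prostate cancer that answers androgen. The cells were starved of steroids for 48 h on serum stripped with charcoal, then treated for 6 h before polyadenylated RNA was taken. The 18 samples fall into 6 groups of 3, called biological replicas in the labels. The groups were 10 nM dihydrotestosterone (DHT) with 1.5 µM Enzalutamide, DHT with 3 µM VPC-13789, DHT with the solvent DMSO, Enzalutamide with ethanol in place of DHT, VPC-13789 with ethanol, and the vehicle group with ethanol plus DMSO. The compound doses are given for the arms with DHT and are not stated separately for the arms without it. Enzalutamide is an antiandrogen in clinical use. VPC-13789 is given in the labels by its code, and the compounds were used at different doses.

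RNA polymerase II pauses shortly after it starts most genes, held by the factors NELF and DSIF. The kinase P-TEFb, made of CDK9 and cyclin T1 or T2 (CCNT1, CCNT2), releases it by phosphorylating those factors and the polymerase tail, and HEXIM1 with the 7SK RNA keeps a large pool of P-TEFb inactive. The super elongation complex brings P-TEFb to the polymerase on the scaffold proteins AFF1 or AFF4, together with an ELL protein that speeds the polymerase and an EAF protein that binds ELL. ELL2 and EAF2 are known androgen targets in prostate cells.

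The values are the authors' own comparisons from DESeq2, each a log2 fold change with its standard error (SE) and adjusted p, and a gene was called at an adjusted p under 0.05. All 95% intervals were computed here from the log2 change and its SE by the normal distribution. Values for single samples were not analysed here, so the level of each group was solved from a gene's average over all samples and its 5 log2 changes. The SD given with a level is the one that the SE implies for samples of a group. Levels and SDs thus come from the same log2 changes and SEs as the tests. Whether ranges of 1 SD overlap is therefore a description and adds no evidence to the p-values. Depth per library is unknown. The 6 luminal prostate markers KLK3, HOXB13, FOLH1, KRT8, KRT18 and FOXA1 averaged between 8460 and 27958 normalized counts. Among markers of other cells, PTPRC of leukocytes averaged 0.532 and CHGA of neuroendocrine cells 0.882, while SYP averaged 53.3, VIM 130.4 and COL1A1 316.2. KRT5, TP63 and PECAM1 were looked for by symbol and were absent from the genes of the tables. As reference androgen targets, TMPRSS2 and FKBP5 rose with DHT by 3.23 (SE 0.10) and 2.80 (SE 0.22) on the log2 scale in the authors' deposited table with DESeq2 adjusted p-values of 1.72e-212 and 4.92e-33. KLK3, also a reference target, rose less, by 1.39 (SE 0.28, DESeq2 adjusted p = 0.00011) in the authors' deposited table.

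Promoters are shown for EAF2, which had the highest change with DHT among the 10 genes, for its paralog EAF1, and for HEXIM1, the gene with the smallest error. Each is the RefSeq window on GRCh38.p14 from 250 bases before to 50 after the start, 5′ to 3′. Capitals mark matches on either strand to the GC box (letters GGGCGG), the CCAAT box (CCAAT, as in its name) and the TATA box (TATAAA). The EAF2 window is chr3:121834959-121835258 on the plus strand, that of EAF1 chr3:15427348-15427647 on the plus strand and that of HEXIM1 chr17:45148225-45148524 on the plus strand.
EAF2: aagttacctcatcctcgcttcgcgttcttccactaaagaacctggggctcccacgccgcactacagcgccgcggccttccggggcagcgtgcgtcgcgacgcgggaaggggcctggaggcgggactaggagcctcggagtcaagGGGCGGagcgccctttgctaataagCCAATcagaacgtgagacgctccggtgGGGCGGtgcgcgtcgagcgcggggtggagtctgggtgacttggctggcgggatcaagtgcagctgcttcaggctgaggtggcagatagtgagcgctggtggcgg
EAF1: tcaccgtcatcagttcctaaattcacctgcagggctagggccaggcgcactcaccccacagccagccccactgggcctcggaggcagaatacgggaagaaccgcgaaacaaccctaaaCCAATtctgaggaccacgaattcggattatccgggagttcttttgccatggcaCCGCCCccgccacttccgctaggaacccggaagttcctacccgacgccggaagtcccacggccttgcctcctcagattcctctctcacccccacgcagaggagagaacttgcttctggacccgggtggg
HEXIM1: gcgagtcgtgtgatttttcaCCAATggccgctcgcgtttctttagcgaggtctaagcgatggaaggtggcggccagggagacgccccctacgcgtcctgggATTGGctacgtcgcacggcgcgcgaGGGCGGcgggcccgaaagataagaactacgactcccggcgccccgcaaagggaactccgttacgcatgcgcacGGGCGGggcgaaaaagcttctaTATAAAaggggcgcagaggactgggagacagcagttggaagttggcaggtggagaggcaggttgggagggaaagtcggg
The EAF2 window holds 2 GC boxes and 1 CCAAT box, that of EAF1 1 of each, and that of HEXIM1 2 GC boxes, 2 CCAAT boxes and 1 TATA box. A GC box stands in 45.0% of all 35116 RefSeq promoter windows of that length, a CCAAT box in 34.6% and a TATA box in 11.5%. Androgen response elements are inverted pairs of AGAACA, a motif that reads TGTTCT on the opposite strand. A single copy was in none of the 11 windows of the 9 genes with an entry and in 14.8% of all windows. The full element, with AGAACA and TGTTCT facing each other 3 bases apart, was in 1 of all 35116. These letters are a description of the windows, and elements far from a start site were not examined. ELL2 is the gene without an entry.

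On GRCh38 in GENCODE release 29, ELL2 lies on the minus strand of chromosome 5 from 95885098 to 95962071 and AFF4 on the minus strand of the same chromosome from 132875379 to 132963634. EAF2 and EAF1 are both on the plus strand of chromosome 3, from 121835183 to 121886526 and from 15427355 to 15450635. On the minus strand also lie ELL on chromosome 19 (18442663 to 18522127) and CCNT1 on chromosome 12 (48688458 to 48716998). On the plus strand lie AFF1 on chromosome 4 (86935002 to 87141054), CDK9 on chromosome 9 (127785679 to 127790787), CCNT2 on chromosome 2 (134918235 to 134959342) and HEXIM1 on chromosome 17 (45148502 to 45152101). These spans run from the first to the last annotated base of each gene, introns included. Whether reads were counted by strand is not given in the sources used here. EAF1 exons share 1500 of 5152 bases (29.1%) with the opposite-strand EAF1-AS1, which averaged 1.36 normalized counts, and 482 bases with METTL6, which averaged 285.1. HEXIM1 shares 520 of its 3600 exonic bases with an opposite-strand gene averaging 4.62. The processed pseudogene ELL2P1, a copy of ELL2 whose reads may be shared, averaged 2.46 normalized counts against 756.8 for ELL2.

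Per kilobase of the longest annotated transcript, CDK9 had the highest level in vehicle-treated cells, 568 ± 117 normalized counts per kb (implied SD, n = 3). AFF4 followed at 292 ± 150 and HEXIM1 at 275 ± 20.2 per kb. EAF1 stood at 194 ± 47.1, CCNT1 at 182 ± 61.0, ELL at 143 ± 30.0 and AFF1 at 121 ± 40.7 per kb. ELL2 at 85.4 ± 35.4, CCNT2 at 66.7 ± 39.1 and EAF2 at 29.3 ± 14.7 per kb were the lowest of the 10 in these hormone-depleted cells. The gap between neighbours in this order was larger than the larger of their implied SDs only between CDK9 and AFF4 and between HEXIM1 and EAF1.

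DHT against vehicle tests which of these genes answered androgen within 6 h. ELL2, the elongation factor, and EAF2, its partner, had the highest changes of the 10, and the other 8 genes lay between -0.49 and 0.11 on the log2 scale with a median of -0.07. In bulk RNA a change in every cell and a change in some of the cells cannot be told apart. None of the 10 passed the test in the authors' deposited table (adjusted p from 0.0948 to 0.999), where 1.87% of all genes tested were called, 1.47% higher and 0.392% lower. At an unadjusted p under 0.05, ELL2 and EAF2 were the 2 of 10, against 4.43% of all genes. The median of the 10 genes was -0.01, and that of all genes 0.00.

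ELL2 stood at 1458 ± 602 normalized counts in DHT-treated cells and at 516.5 ± 213.8 in vehicle-treated cells (implied SD, n = 3 each). The levels less or plus 1 SD do not overlap. This is, in the authors' deposited table, a log2 change of 1.50 (SE 0.49, 95% interval 0.54 to 2.45), or 2.82-fold, with p = 0.0021 before and 0.0948 after DESeq2's adjustment. With this SE a log2 change of 1.61 would have been needed to pass. By size alone it ranked 39 among 10819 genes averaging at least 100 normalized counts.

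EAF2 was a low-count gene, at 90.6 ± 43.3 normalized counts in DHT-treated cells and 29.1 ± 14.6 in vehicle-treated cells (implied SD, n = 3 each). The levels less or plus 1 SD come close without overlap. Its log2 change in the authors' deposited table was 1.64 (SE 0.58, 95% interval 0.51 to 2.77), or 3.11-fold, with p = 0.00456 before and 0.182 after DESeq2's adjustment. A change of 1.91 would have been needed.

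The paralogs of this pair had values near 0. ELL, first known as a fusion partner of KMT2A in leukaemia, stood at 627.6 ± 131.7 normalized counts with DHT and 581.7 ± 122.2 with vehicle (implied SD, n = 3 each). Its log2 change in the authors' deposited table was 0.11, with a 95% interval from -0.38 to 0.59. EAF1 stood at 836.6 ± 203.9 with DHT and 907.7 ± 221.1 with vehicle. Its log2 change in the authors' deposited table was -0.12, with an interval from -0.68 to 0.44. The interval of ELL2 overlaps that of ELL, whereas that of EAF2 starts above the end of that of EAF1. The difference between paralogs was not tested.

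In the authors' deposited table the scaffold genes AFF1 and AFF4 had log2 changes with DHT of -0.42 (SE 0.40) and -0.13 (SE 0.60). For the P-TEFb genes the authors' deposited table gives 0.11 (SE 0.24) for CDK9, -0.03 (SE 0.39) for CCNT1 and -0.49 (SE 0.69) for CCNT2. HEXIM1 was measured most tightly, at 993.3 ± 72.9 normalized counts with DHT and 991.8 ± 72.8 with vehicle (implied SD, n = 3 each). In the authors' deposited table its change was 0.00 (SE 0.09), which gives a 95% interval from -0.17 to 0.17. For AFF4 and CCNT2 the intervals ran from -1.31 to 1.06 and from -1.85 to 0.87, which take in a 2-fold change either way for AFF4 and a 2-fold decrease for CCNT2.

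**Figure D1:**
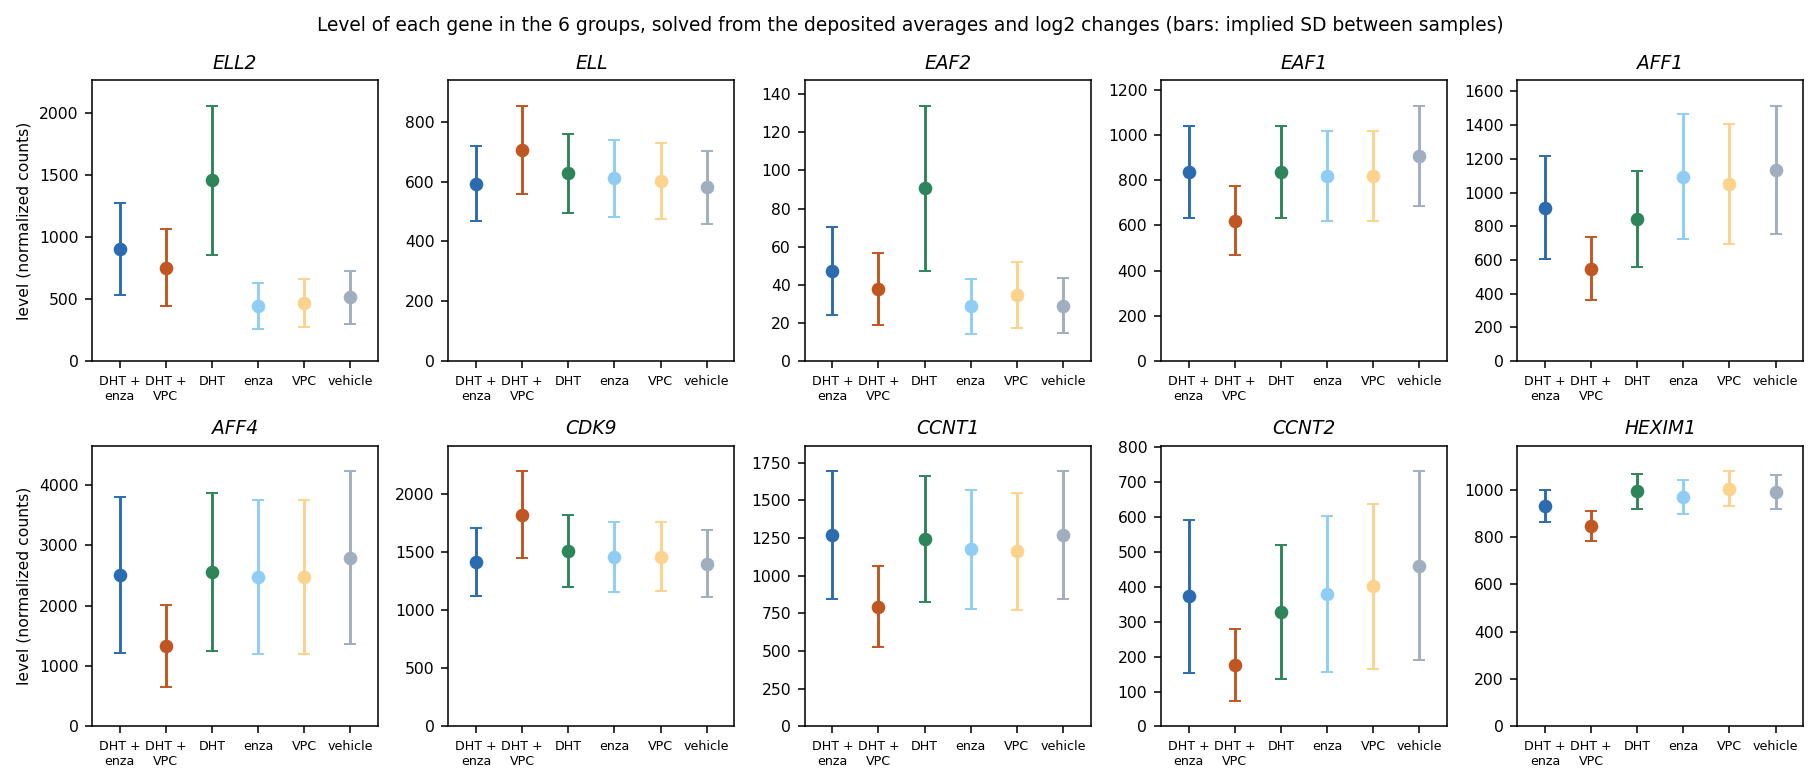
Level of each of the 10 genes in normalized counts (vertical axis, from 0) in the 6 groups of 3 samples; enza is Enzalutamide and VPC is VPC-13789. Points are group levels and bars the SD that the SE implies. ELL2 and EAF2 are highest in the DHT group (1458 and 90.6). EAF1, AFF1, AFF4, CCNT1, CCNT2 and HEXIM1 have their lowest points with DHT plus VPC-13789, and ELL and CDK9 their highest.

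Enzalutamide added to DHT asks how far the antiandrogen takes the androgen response back. ELL2 stood at 903.6 ± 373.2 normalized counts with Enzalutamide and DHT and at 1458 ± 602 with DHT (implied SD, n = 3 each), with overlapping ranges. EAF2 stood at 47.3 ± 23.1 with Enzalutamide and DHT and at 90.6 ± 43.3 with DHT, also overlapping. The log2 changes in the authors' deposited table were -0.69 for ELL2 (SE 0.49, 95% interval -1.64 to 0.26) and -0.94 for EAF2 (SE 0.57, -2.06 to 0.18). None of the 10 genes passed in the authors' deposited table (DESeq2 adjusted p = 1 for each, 0 at an unadjusted p under 0.05), where 0.428% of all genes were called and 2.13% had an unadjusted p under 0.05. The other 8 genes lay between -0.10 and 0.18 on the log2 scale in the authors' deposited table. In the authors' deposited table HEXIM1 was among them at -0.09 (SE 0.09), with levels of 931.5 ± 68.8 normalized counts with Enzalutamide and DHT against 993.3 ± 72.9 with DHT.

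VPC-13789 added to DHT gave ELL2 752.2 ± 310.9 normalized counts, against 1458 ± 602 with DHT (implied SD, n = 3 each). EAF2 stood at 37.8 ± 18.7 with VPC-13789 and DHT, against 90.6 ± 43.3 with DHT. The ranges of 1 SD overlap for both genes. For VPC-13789 the authors' deposited table gives log2 changes of -0.96 for ELL2 (SE 0.49, 95% interval -1.91 to -0.00) and -1.26 for EAF2 (SE 0.58, -2.39 to -0.13). Both had an unadjusted p under 0.05 (0.0497 and 0.029) in the authors' deposited table, as did HEXIM1, and none of the 10 passed (DESeq2 adjusted p from 0.406 to 0.616). Of all genes 0.275% were called and 5.48% had an unadjusted p under 0.05.

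HEXIM1, the P-TEFb inhibitor, stood at 847.8 ± 63.2 normalized counts with VPC-13789 and DHT and at 993.3 ± 72.9 with DHT (implied SD, n = 3 each). These ranges do not overlap, and the authors' deposited table gives a log2 change of -0.23 (SE 0.09, unadjusted p = 0.00943). With DESeq2's adjustment the p was 0.406, and a change of 0.34 in size would have been needed. The scaffold gene AFF4 stood at 1332 ± 684 with VPC-13789 and DHT against 2557 ± 1312 with DHT, and the cyclin gene CCNT2 at 175.1 ± 103.3 with VPC-13789 and DHT against 328.4 ± 193.0 with DHT. For these 2 genes the authors' deposited table gives log2 changes of -0.94 (SE 0.60) and -0.91 (SE 0.69), close in size to that of ELL2, with wide intervals that include 0. In the authors' deposited table AFF1 was at -0.62 (SE 0.40), CCNT1 at -0.65 (SE 0.40), EAF1 at -0.43 (SE 0.29), CDK9 at 0.27 (SE 0.24) and ELL at 0.17 (SE 0.25).

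**Figure D2:**
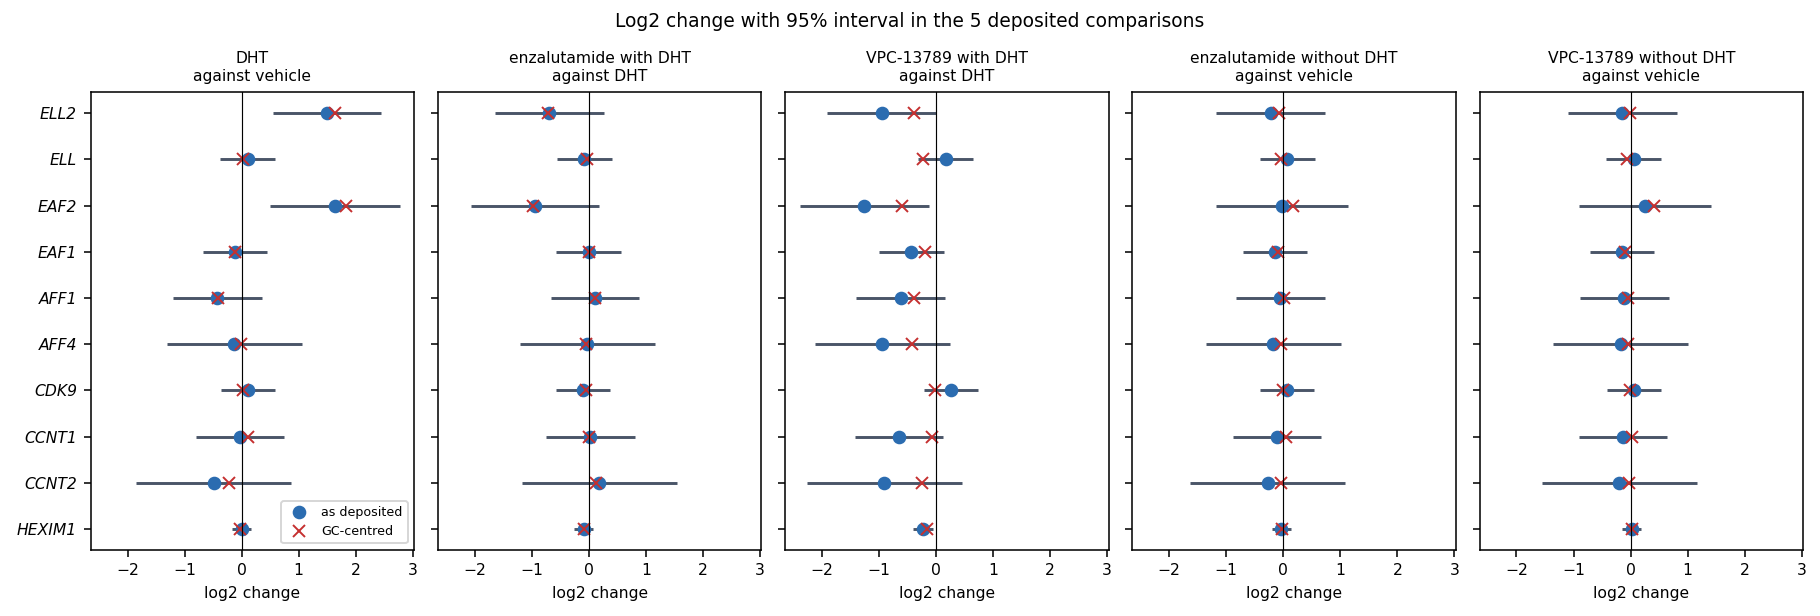
Log2 change (horizontal axis) of the 10 genes in the 5 deposited comparisons, with the 95% interval as a line, the deposited value as a circle and the value after centring on GC content as a cross. The intervals of ELL2 and EAF2 lie above 0 for DHT against vehicle, 8 of 10 circles lie below 0 for VPC-13789 with DHT, and the circles of both comparisons without DHT lie between -0.28 and 0.25.

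In the comparison of VPC-13789 and DHT with DHT, the order of the 10 genes went with the GC content of their transcripts. Spearman's rho between GC content and log2 change was 0.879 over the 10 genes and 0.816 over 10777 nuclear genes averaging at least 100 normalized counts. Those genes share the same libraries, and no p is given. The trend was not particular to this comparison. Over all those genes rho was 0.775 for Enzalutamide and 0.741 for VPC-13789 against vehicle, 0.498 for DHT against vehicle and -0.322 for Enzalutamide and DHT against DHT. Over the 10 genes it was 0.709, 0.455, 0.103 and -0.103 in these 4 comparisons. CCNT2, EAF2, ELL2, CCNT1 and AFF4 had GC contents from 37.0% to 41.1%, and CDK9 and ELL had 55.1% and 59.7%. The median log2 change was -0.67 over the eighth of genes poorest in GC and 0.47 over the eighth richest in GC. Centring each value on genes of like GC brought ELL2 to -0.38, EAF2 to -0.59, AFF4 to -0.42, CCNT2 to -0.24, CCNT1 to -0.07 and HEXIM1 to -0.16 on the log2 scale. It turned CDK9 to -0.03 and ELL to -0.24, and the median of the 10 was -0.24 after centring and -0.63 before. The SEs were kept as deposited, at 0.49 for ELL2, 0.58 for EAF2 and 0.09 for HEXIM1, so the centred values of ELL2 and EAF2 lie near 1 SE from 0. None of the 10 was called after centring (for HEXIM1 the Wald test adjusted p was 0.767). The part of the GC trend in these changes was not tested.

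**Figure D3:**
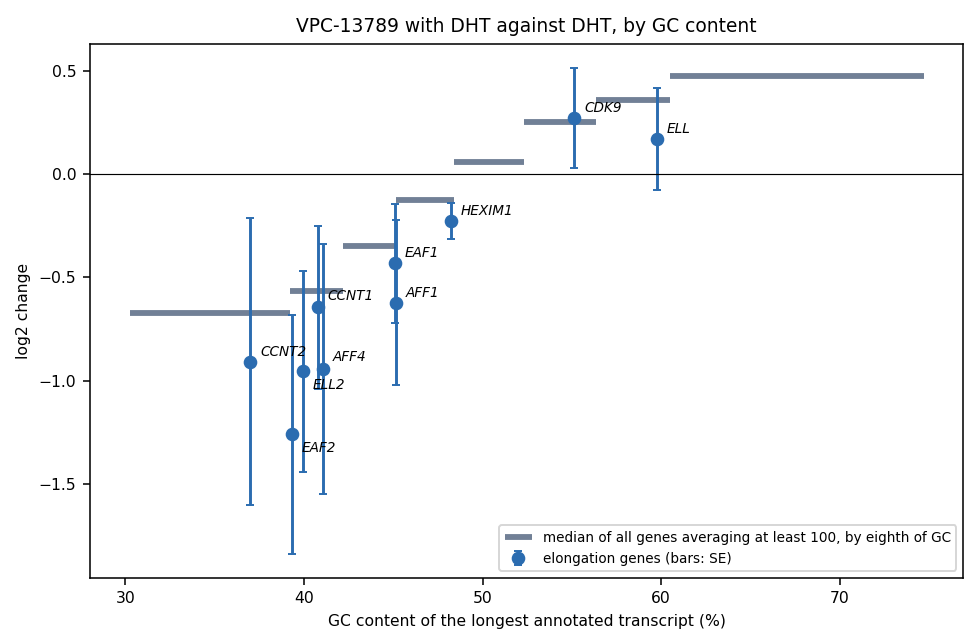
Log2 change for VPC-13789 with DHT against DHT (vertical axis) by GC content of the longest transcript (horizontal axis). Circles are the 10 genes with their SE, and grey bars the median of all genes averaging at least 100 normalized counts in each eighth of GC, from -0.67 to 0.47; all of the 10 genes but CDK9 lie below the bar of their eighth.

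The errors of the 10 genes differed widely. The coefficient of variation between samples of a group that the SE implies, without counting noise, was 58.5% for CCNT2, 51.3% for AFF4, 46.7% for EAF2 and 41.2% for ELL2. It was 33.6% for AFF1, 33.4% for CCNT1, 24.1% for EAF1, 20.6% for ELL and 20.4% for CDK9, and HEXIM1, at 48.2% GC, had 6.61%. Over all genes averaging at least 100 it was 43.5% in the eighth of lowest GC, 13.9% in the fourth eighth and 27.6% in the eighth of highest GC. ELL2 lay at the 87.7th percentile of variation among those genes, CCNT2 at the 98.0th and HEXIM1 at the 4.74th. Genes of like GC content among the 10 also differed, such as CCNT1 and AFF4, and the part of GC content in their errors was not tested.

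**Figure D4:**
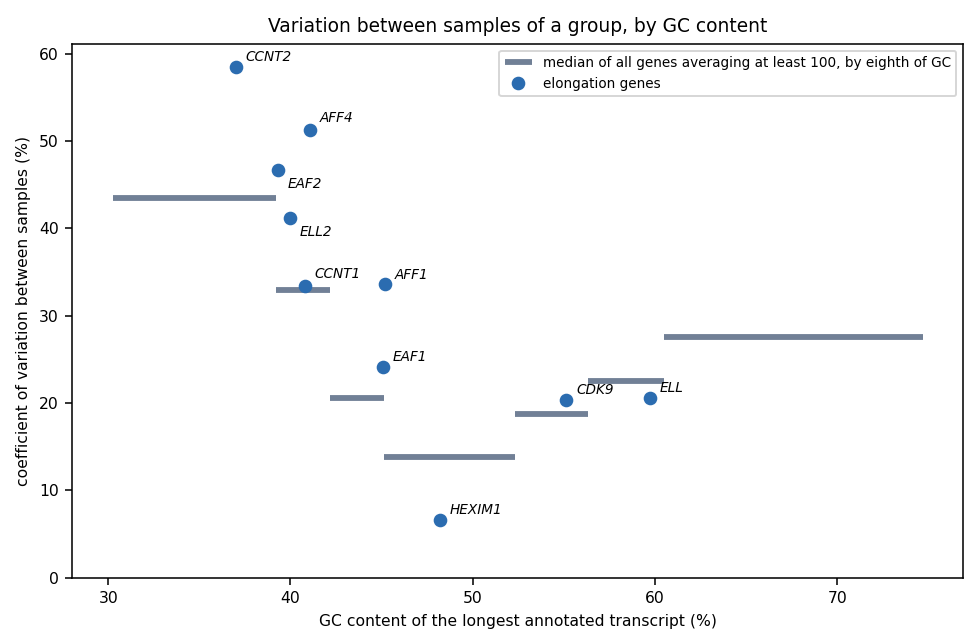
Coefficient of variation between samples of a group in percent (vertical axis, from 0) by GC content of the longest transcript (horizontal axis). Circles are the 10 genes and grey bars the value for the median gene in each eighth of GC; both are lowest near 48% GC, where HEXIM1 lies at 6.61%, and highest at low GC, where CCNT2 lies at 58.5%.

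Without DHT none of the 10 genes passed the test against vehicle with either compound. With Enzalutamide ELL2 stood at 443.8 ± 183.9 normalized counts and EAF2 at 28.8 ± 14.5, against 516.5 ± 213.8 and 29.1 ± 14.6 with vehicle (implied SD, n = 3 each). With VPC-13789 ELL2 stood at 466.2 ± 193.1 and EAF2 at 34.7 ± 17.2. The 10 log2 changes in the authors' deposited table ran from -0.28 to 0.07 for Enzalutamide and from -0.20 to 0.25 for VPC-13789. Their 95% intervals are wide, from -1.63 to 1.08 for CCNT2 with Enzalutamide and from -0.90 to 1.40 for EAF2 with VPC-13789, so that a 2-fold change is not excluded for these genes. None was called by DESeq2 (adjusted p = 1 for each, 0 at an unadjusted p under 0.05), beside 0.00363% of all genes called with Enzalutamide and 0% with VPC-13789. The share of all genes at an unadjusted p under 0.05 was 0.675% for Enzalutamide and 0.769% for VPC-13789.

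The compounds, given with DHT at 1.5 µM Enzalutamide and 3 µM VPC-13789 and without DHT at doses that are not stated, were compared directly by a Wald test on the difference of their log2 changes, adjusted over all genes by Benjamini-Hochberg. With DHT, ELL2 differed by -0.26 (VPC-13789 minus Enzalutamide, SE 0.49, 95% interval -1.22 to 0.69, adjusted p = 0.857) and EAF2 by -0.32 (SE 0.57, -1.45 to 0.81, adjusted p = 0.851). Centring on GC turned the sign of both, to 0.34 and 0.39 (adjusted p = 1.00 for each). HEXIM1 differed by -0.14 (SE 0.09, -0.31 to 0.04, adjusted p = 0.51). None of the 10 passed the Wald test (0 at an unadjusted p under 0.05), beside 0.0109% of all genes called and 5.49% with an unadjusted p under 0.05. Without DHT the differences were 0.07 for ELL2 (95% interval -0.89 to 1.03) and 0.27 for EAF2 (-0.88 to 1.42), and none of the 10 passed the Wald test (0 at an unadjusted p under 0.05), nor did any gene (0.914% at an unadjusted p under 0.05). With DHT the intervals of ELL2 and EAF2 take in a 2-fold lower level with VPC-13789, and without DHT a 2-fold higher one, so the tests do not show that the compounds act alike on these genes.

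What was left of the DHT response under each compound was read by setting DHT with a compound against that compound alone. Under Enzalutamide, ELL2 was at 1.03 on the log2 scale (SE 0.49, 95% interval 0.07 to 1.98, Wald test unadjusted p = 0.0352, adjusted p = 1) and EAF2 at 0.72 (SE 0.58, -0.42 to 1.85, adjusted p = 1). Under VPC-13789, ELL2 was at 0.69 (SE 0.49, -0.26 to 1.64, adjusted p = 0.562) and EAF2 at 0.13 (SE 0.58, -1.01 to 1.26, adjusted p = 0.969). After centring on GC these last values were 1.26 for ELL2 and 0.82 for EAF2 (adjusted p = 0.165 and 0.819). HEXIM1 was at -0.25 (SE 0.09, unadjusted p = 0.00478, Wald test adjusted p = 0.266) under VPC-13789 and at -0.06 under Enzalutamide. The count called was 0 of 10 under either compound, beside 0.482% of all genes called under Enzalutamide and 0.83% under VPC-13789. At an unadjusted p under 0.05 it was 1 of 10 (ELL2) under Enzalutamide, against 2.68% of all genes, and 2 of 10 (HEXIM1 and AFF1) under VPC-13789, against 7.36%. AFF1, a scaffold gene, was there at -0.94 (SE 0.40, unadjusted p = 0.0182, Wald test adjusted p = 0.532) and at -0.75 after centring on GC.

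The interaction of a compound with DHT, tested over all 4 groups, was -0.47 for Enzalutamide (SE 0.69) and -0.81 for VPC-13789 (SE 0.69) at ELL2, and -0.92 for Enzalutamide (SE 0.82) and -1.51 for VPC-13789 (SE 0.82) at EAF2 (Wald test, adjusted p = 1 for each). None of the 10 passed in either interaction, with HEXIM1 for VPC-13789 (-0.25, SE 0.12, unadjusted p = 0.0447) the single gene at an unadjusted p under 0.05. Of all genes 0.0762% were called for Enzalutamide and 0% for VPC-13789, and at an unadjusted p under 0.05 were 1.29% for Enzalutamide and 1.43% for VPC-13789.

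Over the 5 log2 changes, the genes averaging at least 100 normalized counts that lay nearest to ELL2 by Euclidean distance were DUBR, MBOAT2, TNFAIP8, MTMR9 and CDC42EP3, at 0.16 to 0.27. DUBR is a long noncoding RNA and MBOAT2 a lysophospholipid acyltransferase. Their log2 changes with DHT ran from 1.30 to 1.51 in the authors' deposited table, a range that the choice by likeness fixes. Nearest to EAF2 were SLC16A6, ERRFI1, STK17B, CYP2U1 and PIK3AP1, at 0.43 to 0.59. ERRFI1 is a feedback inhibitor of the EGF receptor and CYP2U1 a cytochrome P450. ELL2 and EAF2 lay 0.61 apart on the same measure. In the ranking after centring on GC, genes without a GC value were counted at distance 0 and took the first places. For ELL2, DUBR, TNFAIP8, MBOAT2 and MTMR9 then ranked from 20 to 24 and CDC42EP3 at 35. For EAF2, STK17B, SLC16A6, ERRFI1 and PIK3AP1 ranked from 20 to 25 and CYP2U1 at 41. CDC42EP3 and CYP2U1 were thus no longer among the 5 nearest, and whether all the others stayed there was not settled. The comparisons share their DHT and vehicle libraries, so the 5 values are not independent.

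The wider elongation machinery was read from 11 lists with 79 further genes. Of these, 77 had an adjusted p in the 3 comparisons that involve DHT. With DHT 2 of the 77 rose and none fell in the authors' deposited table, where 1.47% of all genes were called higher and 0.392% lower. The median change of the 79 was 0.00, as was that of all genes. AFF3, a member of the AFF family of scaffold proteins, rose by 1.02 (SE 0.25, DESeq2 adjusted p = 0.00287) in the authors' deposited table. Its level was 313.5 normalized counts with DHT and 154.3 with vehicle. BRD2, a BET bromodomain protein that binds acetylated histones, rose by 0.40 (SE 0.07, DESeq2 adjusted p = 3.63e-07) in the authors' deposited table, to 7351 normalized counts with DHT against 5564 with vehicle. With Enzalutamide and DHT, BRD2 fell to 6044 normalized counts, a log2 difference of -0.28 in the authors' deposited table (SE 0.07, DESeq2 adjusted p = 0.00748), and was the single gene of the 77 called, beside 0.428% of all genes. This call was lost after centring on GC (-0.24, adjusted p = 0.119). AFF3 stood, in the authors' deposited table, at -0.44 (SE 0.24) with Enzalutamide and DHT and at -0.63 (SE 0.25) with VPC-13789 and DHT, not called in either.

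With VPC-13789 and DHT none of the 77 was called by DESeq2 in the authors' deposited table, where 0.275% of all genes were. At an unadjusted p under 0.05 were 4 of the 79, against 5.48% of all genes, and the median was -0.12, against 0.00 for all genes. BRD2 there stood at -0.07 in the authors' deposited table, with an SE of 0.07. After centring on GC, 4 of the 79 were called beside 2.4% of all genes, BRD2 (-0.37) and the KMT2A fusion partner MLLT6 (-0.37) lower, the splicing factor HNRNPA1 (0.34) and the PAF1 complex subunit WDR61 (0.49) higher. The median was then -0.04. Without DHT none of the 79 was called by DESeq2 with either compound (0 at an unadjusted p under 0.05). The 6 NELF and DSIF genes, which hold the paused polymerase, had a median of 0.12 with DHT, with values from 0.08 to 0.19, and none was called. The 6 genes of the PAF1 complex, which travels with elongating polymerase, had a median of -0.10 and the 3 of the little elongation complex a median of -0.28, none called. The highest and lowest values of the 79 with DHT were those of AFF2 (1.95, SE 2.22, at an average of 0.566 normalized counts) and CDK8 (-0.98) in the authors' deposited table. CDK8 was not called, and AFF2 had no adjusted p.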

How the data were processed

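RNA was sequenced from 18 LNCaP cultures. Per the submitters' processing notes the tools were FastQC, STAR (2.6.1c), featureCounts and DESeq2, with GRCh38.p12 as the genome. The sources used here do not give the annotation, strandedness or filters. The average normalized count is a signal the authors deposited on a linear scale. The authors' fold changes and their SE are in log2. Their Wald statistic is a score, deposited beside p-values and adjusted p-values. Of 27599 rows, 25 with a date for a symbol were left out. No values per sample were analysed, so the planned count test gave way to the authors' statistics. A group's level was solved from the average and the 5 log2 changes, and its dispersion from the SE and levels. The dispersion of each of the 10 genes differed by at most 2.64% between tables. Size factors near 1 are assumed, and the authors' DESeq2 run draws dispersions toward a trend, so implied SDs are the model's.

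Derived comparisons were Wald tests with Benjamini-Hochberg (BH) adjustment over 27574 genes. The variance was the mean of the squared SE where 2 groups are compared, and their sum for interactions. GC centring subtracted the median of genes of like GC content (20 bins, nuclear genes averaging at least 100 normalized counts), with GC and length from the longest GENCODE 29 transcript, matched for 99.3% of genes and all 10 members. Steps were tested on simulated data. The named genes were the 10 members, called or extreme genes of the lists, the 5 genes nearest ELL2 and EAF2, and reference androgen targets. Members and lists were chosen with earlier results of these data known. The computations ran in Python 3.11.15 with scipy 1.17.1, numpy 2.4.6, pandas 2.3.3 and matplotlib 3.10.9. Nothing in the labels shows separate passages or days, and the spread behind the p-values is that of cultures of 1 line, which may be technical. The compound groups without DHT carry sample identifiers from a separate, later range than all other groups. Whether they were prepared or sequenced apart is not stated. In comparisons of these groups with the others, treatment and any such difference cannot be told apart. Adjusted p-values in the text are the authors' from DESeq2 or those of the Wald tests.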

Additional observations from a re-analysis of the deposited data

How the results depend on the processing

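The count called was 0 of the 10 genes in each of the 11 comparisons, and stayed at 0 with BH over all genes, with BH over genes averaging at least 100 normalized counts, with GC centring, and with variances from the recovered dispersions, wherever each was run. GC centring together with BH over genes averaging at least 100, an alternative chosen after seeing the data, called 1 gene with DHT, ELL2, at a log2 change of 1.64 (adjusted p = 0.029). For ELL2 with DHT the adjusted p was 0.0505 with GC centring, 0.0729 with BH over genes averaging at least 100, 0.124 with BH over all genes and 0.0948 as deposited. EAF2, which averaged 44.7 normalized counts, was left out by the limit of 100.

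GC centring changed the sign of some values that were not called. With DHT CCNT1 went to 0.12 and HEXIM1 to -0.0218. With Enzalutamide and DHT, EAF1 went to 0.00 (0.00312) and CCNT1 to -0.00 (-0.00109). With VPC-13789 and DHT, ELL went to -0.24 and CDK9 to -0.0264. With Enzalutamide alone ELL went to -0.0332, EAF2 to 0.17, AFF1 to 0.00 (0.0038), CDK9 to -0.0138 and CCNT1 to 0.0399. With VPC-13789 alone ELL went to -0.0590, CDK9 to -0.00 (-0.00461) and CCNT1 to 0.0170. In the difference between the compounds with DHT, ELL2 went to 0.34, EAF2 to 0.39 and ELL to -0.21. For DHT under VPC-13789, ELL went to -0.16 and CCNT1 to 0.0253. In all 29 of 110 values changed sign, 15 of them in derived comparisons, where the 10 not named here went to between -0.18 and 0.02. Of the 60 group levels 56 moved by less than 1 implied SD, the exceptions being ELL, EAF2, CCNT1 and CCNT2 with VPC-13789 and DHT. No paired analysis was possible because the tables hold comparisons and no values per sample, and for the same reason no replicate could be left out. The libraries' depth is unknown, so the SE is the measure of precision.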
